A study of Mus musculus with 2 samples.

Results

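Cycling granule-intermediate progenitors are described here: bone marrow cells that carried at least 1 unique molecular identifier (UMI) of Mki67 and in which Elane, Mpo, Prtn3 and Ctsg together made up 10 to 40 UMIs per 10,000. A cell was a barcode with at least 8000 UMIs, of which under 10% came from mitochondrial genes. The rule found 1560 members among 10821 cells, 1035 of 5363 cells in the miR-142 WT CML library and 525 of 5458 cells in the miR-142 KO CML library. A working name of granule-high cells did not match this window, because the cells above 40 per 10,000 were a separate and larger class in KO, so the members are called granule-intermediate. The 4 granule genes and Mki67 chose the members, and their values in the class are therefore given as a description.

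Both libraries were made from Lin-Sca-1+c-Kit+ (LSK) bone marrow cells of mice aged 8 to 10 weeks that carried a BCR-ABL transgene. In this model of chronic myeloid leukemia (CML) the SCL promoter drives the tetracycline transactivator tTA, so BCR-ABL is switched on in stem and progenitor cells when tetracycline is withdrawn, and the controls carried it as well. The groups differed in miR-142, which was intact (miR-142+/+) in miR-142 WT CML and absent (miR-142-/-) in miR-142 KO CML, and the cells were taken 2 weeks after tetracycline withdrawal. Each group was 1 library of 10x Genomics 3′ counts, the number of mice behind it was not stated in the sources used here, and no test between groups could be made. All intervals below are exact 95% intervals that cover counting error only, and they say nothing of the spread between mice.

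The 4 granule genes encode the contents of azurophil granules, which are filled at the promyelocyte stage of neutrophil development. Elane, Prtn3 and Ctsg encode the serine proteases neutrophil elastase, proteinase 3 and cathepsin G, and Mpo encodes myeloperoxidase, which makes hypochlorous acid. C/EBPα and PU.1 start this programme in early progenitors, IRF8 steers cells to monocytes and dendritic cells, and GFI1 and C/EBPε steer them to neutrophils. Ki-67, the product of Mki67, is made in dividing cells and lost in resting cells.

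The deleted locus gives 2 mature microRNAs, shown because their loss is what sets the groups apart. Bases 2 to 8, the seed that pairs with target transcripts, are in capitals (RefSeq, GRCm38.p6, plus strand).
mmu-miR-142a-5p: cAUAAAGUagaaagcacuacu
mmu-miR-142a-3p: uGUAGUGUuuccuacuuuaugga
The 5p arm lies at chr11:87756867-87756887 and the 3p arm at chr11:87756903-87756925, and neither seed was shared with another of the 1738 mature microRNAs in the RefSeq table. Their host transcript Mir142hg (chr11:87755577-87757270) checks the labels. It had 242 UMIs in the WT members (8.56 UMIs per 1,000,000, CPM, interval 7.51 to 9.70) and 0 UMIs among 11978571 in the KO members. The count of 0 was given a ceiling of 3 UMIs, or 0.250 CPM, and the WT level was 34.2-fold above that ceiling. The ceiling is a working bound, unlike the exact intervals, and the fold leaves out the counting error of WT. Over all cells it had 1260 UMIs in WT and 20 in KO.

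In WT the members were 19.3% of all cells, with an interval of 18.2 to 20.4%. In KO they were 9.62%, with an interval of 8.85 to 10.4%, so that KO minus WT was -9.68 percentage points with a counting error of 1.33 points. Cells with an Mki67 UMI were a similar share of both libraries, 55.9% in WT and 59.1% in KO. Among those cells the members were 34.5% in WT and 16.3% in KO, whereas cycling cells above the window were 31.6% in WT and 75.1% in KO. Within the window, 51.5% of WT cells and 38.5% of KO cells carried an Mki67 UMI. The smaller share of members in KO therefore went with more cycling cells above the window, and with fewer below it (33.9% of cycling cells in WT and 8.62% in KO).

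**Figure D1:**
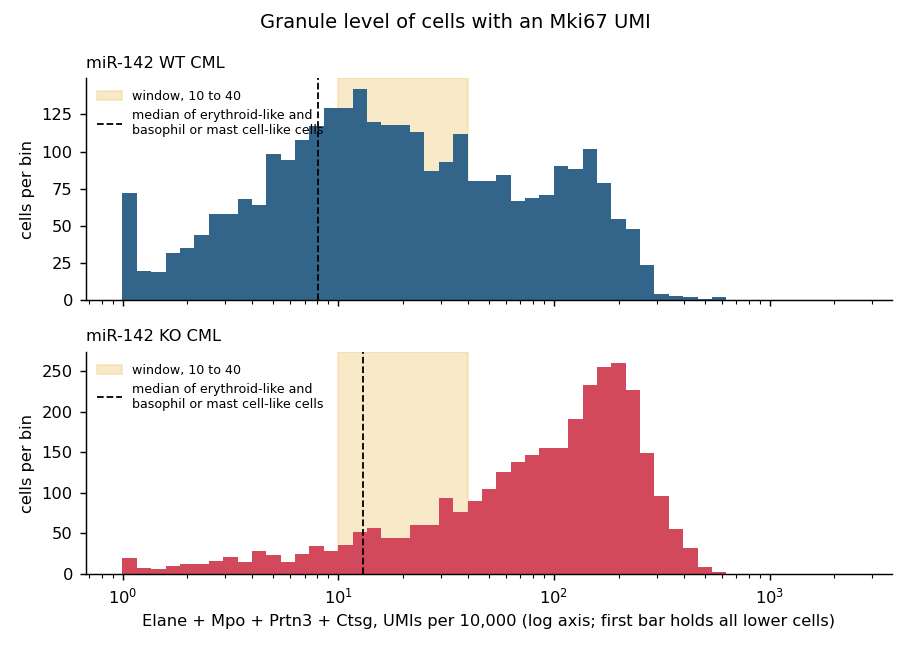
Cells with an Mki67 UMI by their summed Elane, Mpo, Prtn3 and Ctsg level in UMIs per 10,000 (log axis), with WT above and KO below, and the number of cells per bin on the y axis. The shaded window of 10 to 40 holds 1035 WT and 525 KO cells. The dashed lines mark medians of 8.07 (WT) and 12.98 (KO) in erythroid-like and basophil or mast cell-like cells.

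Granule transcripts outside cells, and in cells of other types, were higher in KO than in WT. In barcodes of 10 to 100 UMIs, which hold mostly free RNA, the 4 genes made up 59.0 UMIs per 10,000 in WT and 135.4 in KO. Cells carrying markers of erythroid or of basophil and mast cells were taken as types with little or no azurophil transcript. Their median granule level was 8.07 per 10,000 in WT (252 cells) and 12.98 in KO (404 cells). Other types were lower, with medians of 1.61 (16 cells) and 2.68 (29 cells) in megakaryocyte-like cells and 0.737 (5 cells) and 3.14 (33 cells) in innate lymphoid-like cells. Cycling cells below the window had medians of 4.96 and 4.36, but the rule itself holds them under 10. The lower edge of the window thus lay above the medians of these marked cell types in WT. In KO it lay below that of the erythroid, basophil and mast cells but above those of the megakaryocyte-like and innate lymphoid-like cells. In KO erythroid-like cells had a median of 12.07 and basophil or mast cell-like cells of 18.74. Even in WT, 37.8% of erythroid-like and 31.1% of basophil or mast cell-like cells lay inside the window, and in KO 56.4% and 19.0%. The correction of the share depended on the type used. With the medians of the erythroid, basophil and mast cells taken off before the window was applied, the members were 11.95% of WT and 8.23% of KO cells, and the difference shrank from -9.68 to -3.73 points. With those of the megakaryocyte-like cells taken off they were 17.4% and 9.12%, a difference of -8.31 points. The part of free RNA in these levels was not tested.

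The members covered the whole window and were not alike. Their median granule level was 18.6 per 10,000 in WT (middle 50% from 13.4 to 26.4) and 23.6 in KO (15.2 to 30.9). At the lower edge, 180 WT and 48 KO cycling cells at 8 to 10 per 10,000 fell just outside and 151 and 46 cells at 10 to 12 just inside. At the upper edge, 96 WT and 66 KO cells lay at 35 to 40 and 60 and 71 cells at 40 to 45. The median member held 25200 UMIs in WT and 21233 in KO, and 4980 and 4529 genes. The median Mki67 count was 5 UMIs in WT and 3 in KO, and 20.5% and 28.6% of members rested on a single Mki67 UMI. Markers of another cell type at 20 or more UMIs per 10,000 were found in 39 WT members (3.77%) and 43 KO members (8.19%), mostly basophil or mast cell-like (32 and 21) or erythroid-like (5 and 24). Values without these cells are given below for the named genes that moved most.

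Prtn3 and Ctsg, not Elane, carried the granule level of these cells. One UMI stands for 1 captured 3′ end, so counts of different genes need no scaling to length. Prtn3 was at 1122 CPM in WT members against 1027 CPM in KO members (log2 KO over WT -0.13, interval -0.16 to -0.10). Ctsg was at 613 CPM in WT against 1240 CPM in KO (1.02, 0.98 to 1.05). Mpo was at 442 CPM in WT against 142 CPM in KO (-1.64, -1.72 to -1.57). Elane was at 19.3 CPM in WT against 38.6 CPM in KO (1.001, 0.82 to 1.18), against 1637 and 3417 CPM in cycling cells above the window. Elane was also 0.96 (WT) and 0.92 (KO) higher on the log2 scale than in cycling cells below the window, though the rule used it.

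The mixture of the 4 transcripts separated WT from KO members although the window was the same. Prtn3 made up 51.1% of the granule UMIs of WT members, Ctsg 27.9%, Mpo 20.1% and Elane 0.877%. In KO members Ctsg made up 50.7%, Prtn3 42.0%, Mpo 5.78% and Elane 1.58%. Prtn3 was the leading gene in 81.5% of WT cells and 44.6% of KO cells, and Ctsg in 13.2% and 52.2%. Mpo led in 44 WT cells and in 0 of the 525 KO cells, whose exact interval reaches 0.700%. The lower Mpo share of KO was also present above the window (21.96% in WT and 12.3% in KO) and among cells of the window without an Mki67 UMI (16.8% and 5.90%). Mpo (chr11:87793581-87804413) lies on the same chromosome as the miR-142 locus, on the far side of its neighbour Tspoap1, whose values are given below. Any part of the altered allele in the Mpo counts was not tested.

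**Figure D2:**
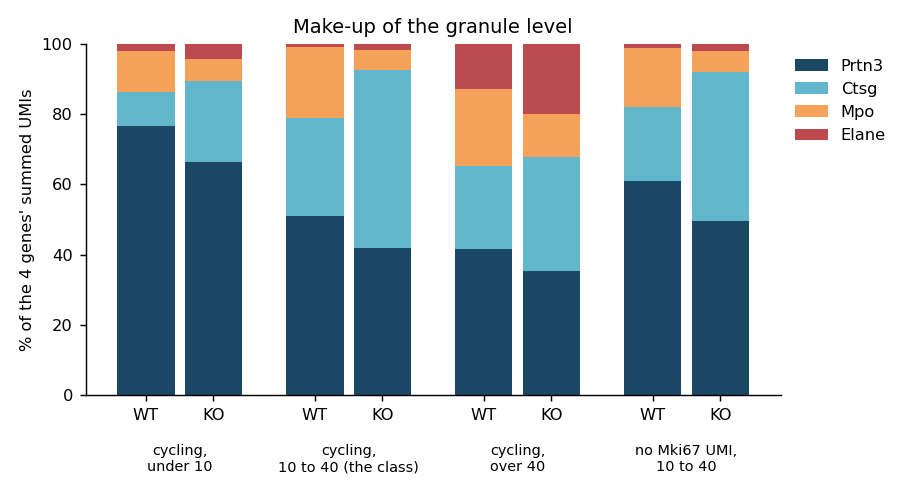
Share of Prtn3, Ctsg, Mpo and Elane in their summed UMIs (stacked bars, percent) in 4 classes of cells, WT and KO. In the class Ctsg takes 27.9% in WT and 50.7% in KO, Mpo takes 20.1% and 5.78%, and Elane takes 12.8% (WT) and 19.98% (KO) above the window but under 2% in the class.

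Counts per cell, with each cell thinned to 8000 UMIs, were set against the background in cells of other types. Elane was found in 14.6% of WT members (12.5 to 16.9) and 24.8% of KO members (21.1 to 28.7), and in 34.6% and 49.5% without thinning. Erythroid-like cells had Elane in 6.67% (1.40 to 18.3, 45 cells, median 13967 UMIs) in WT and 19.6% (13.2 to 27.3, 133 cells, median 12647 UMIs) in KO. The intervals of members and erythroid-like cells overlapped in both libraries, so this share did not tell Elane in the members apart from that background. With so few erythroid-like cells the overlap does not show equal levels. Nor were they a clean background, since after thinning Spi1, the gene of PU.1, was in 62.2% of them in WT and 70.7% in KO. It was in 72.4% and 77.3% of members and in 12.5% and 24.1% of megakaryocyte-like cells. Overlap with erythroid-like cells therefore does not mark a transcript of the members as background. Megakaryocyte-like cells had Elane in 18.8% and 17.2%, with intervals that also overlapped. Mpo was found in 84.8% of WT and 57.7% of KO members after thinning, and in 28.9% and 42.9% of erythroid-like cells. Ctsg was found in 77.9% of WT and 96.8% of KO members, and in 17.8% and 68.4% of erythroid-like cells. Elane, Mpo and Ctsg were part of the rule, so their shares in the members are fixed in part by it and are no test. The erythroid-like set also held 5 WT and 24 KO members. The unthinned shares were 94.5% and 79.6% for Mpo and 88.2% and 98.3% for Ctsg.

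The promoters of all 4 granule genes held the same short ETS-type motif, the kind of letters that PU.1 and its relatives bind. The motif AGGAAGT was searched on both strands of the 250 bases before each RefSeq start. It was chosen after the sequences had been read, so its presence in all 4 is a description and no test. Of 32851 such windows 7.69% held it. A window of 30 bases around each match is shown because these genes chose the members, with the motif in capitals, read on the strand of the gene (RefSeq, GRCm38.p6).
Prtn3: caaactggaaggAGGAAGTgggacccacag
Ctsg: gagaggaagaaaAGGAAGTagtcacctgtt
Mpo: gtggagagagagAGGAAGTtgcctttgtcc
Elane: cgtgtcccagggAGGAAGTagggctgtggc
These windows lie at chr10:79879561-79879590 (plus strand) for Prtn3, chr14:56102763-56102792 (minus strand) for Ctsg, chr11:87793549-87793578 (plus strand) for Mpo and chr10:79886216-79886245 (plus strand) for Elane. The motif began 94 bases before the start of Prtn3, 84 before Elane, 206 before Ctsg and 223 before Mpo. The C/EBP-type letters TTGCNNAA, found in 9.56% of windows, were in 0 of the 4. A match is a string of letters and shows no binding, and Elane, the lowest of the 4 here, held the motif as the others did.

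Against cycling cells below the window, the members were higher in early myeloid genes and lower in stem and megakaryocyte genes. Of 5757 genes with at least 20 CPM in the members of either library, 35 (0.608%) were at least 2-fold higher than in granule-low cycling cells in both libraries and 17 (0.295%) were at least 2-fold lower. The granule genes that set the classes apart are among them and are no result. Of the 20 tested genes of a list of other early granulocyte and monocyte genes, 15 were higher in both libraries, against 32.6% of all tested genes, and 7 by at least 2-fold, with a median log2 ratio of 0.93 in WT and 0.75 in KO against -0.03 and -0.02 over all tested genes. Haptoglobin (Hp), a granule protein, was 2.90 higher on the log2 scale in WT and 2.71 in KO, and the hexokinase gene Hk3 1.61 and 2.47. Lcn2, which encodes the later granule protein lipocalin 2, was at 0.745 CPM below the window and 6.86 CPM in the members in WT, and at 2.43 and 35.2 CPM in KO. Clec12a, a myeloid inhibitory receptor, was 1.48 and 1.82 higher, and F13a1, the coagulation factor XIII subunit of monocytes, 3.13 and 3.28 higher.

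Transcription factors of the myeloid line were higher in the members than below the window. Cebpa was at 37.2 CPM in the WT members and at 11.2 CPM below the window, and in KO at 34.7 and 8.79 CPM (log2 1.73 and 1.98). Irf8 was 1.79 and 2.24 higher than below the window, and Cebpd 1.31 and 1.26. Spi1, the gene of PU.1, was 0.72 and 0.87 higher, and Gfi1 0.97 and 1.35 higher. After thinning, Cebpa was found in 20.9% of WT and 20.8% of KO members (50.4% and 47.0% without thinning), against 11.1% and 13.5% of erythroid-like cells, with overlapping intervals, and 0 of 16 WT and 0 of 29 KO megakaryocyte-like cells, whose exact intervals reach 20.6% and 11.9%. In KO the interval of the members (17.4 to 24.5) lay above that of the megakaryocyte-like cells. Cebpe, the factor of later granules, had 31 UMIs in all WT members and 29 in all KO members, at 1.10 and 2.42 CPM, with log2 ratios of -3.38 and -4.45 to the cells above the window. Of 12 tested myeloid factors 8 were higher than below the window in both libraries, against 32.6% of all tested genes, 3 of them by at least 2-fold.

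Lower in the members than in the low class were genes of stem cells and of the erythroid and megakaryocyte lines. Of 10 tested erythroid and megakaryocyte genes 8 were lower in both libraries, against 43.1% of all tested genes, and 5 by at least 2-fold. Itga2b, the CD41 integrin chain of platelets, was at a log2 ratio of -1.81 in WT and -2.25 in KO, Apoe, a lipoprotein gene, at -2.16 and -1.94, and Zfpm1, which encodes the GATA1 partner FOG1, at -1.56 and -1.91. Of 10 tested stem cell genes 7 were lower in both libraries, against the same 43.1%, and 1 by at least 2-fold. Meis1 was at -0.84 and -0.69 and Hlf at -0.67 and -0.23.

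Against cycling cells above the window, the members were higher in stem cell and lymphoid genes, and also in mast cell, erythroid and megakaryocyte genes. Of the same 5757 genes 274 (4.76%) were at least 2-fold higher in the members in both libraries and 55 (0.955%) at least 2-fold lower. At any size 50.2% were higher in both and 38.5% lower in both. Of 10 tested stem cell genes, 9 were higher in both libraries and 8 by at least 2-fold. Hlf was 2.60 higher in WT and 2.54 in KO, Meis1 2.20 and 1.92, and Mecom 2.70 and 1.89, all on the log2 scale. Of 11 tested lymphoid priming genes 10 were higher in both and 6 by at least 2-fold. Among them were Flt3, the receptor of early lymphoid and myeloid progenitors (1.51 and 1.76), and Dntt, the terminal transferase of lymphoid progenitors (3.33 and 4.05). Mast cell, basophil and eosinophil genes were higher in both for 11 of 12 tested, 8 by at least 2-fold. Erythroid and megakaryocyte genes were higher in both for 9 of 10 tested, 8 by at least 2-fold. All 25 tested genes of secretory protein folding were lower in the members in both libraries, 4 of them by at least 2-fold, with the endoplasmic reticulum factor Manf at -1.53 and -1.14 and the transcription factor gene Xbp1 at -1.40 and -1.15. Of 74 nuclear genes of oxidative phosphorylation 66 were lower in both, with medians of -0.28 and -0.25, and 13 of 15 glycolysis genes were lower in both, against the 38.5% of all tested genes. The cells above the window were deeper, with medians of 53560 UMIs in WT and 41687 in KO, and their level of granule transcripts takes a larger share of each total.

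**Figure D3:**
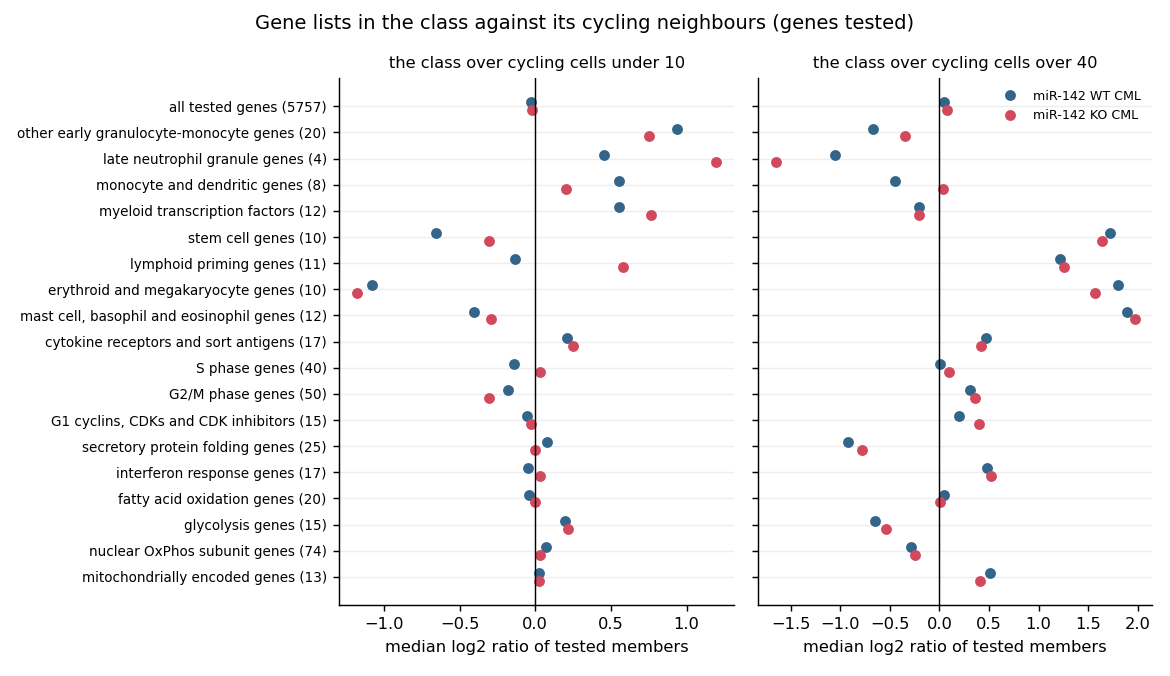
Median log2 ratio of CPM over the tested genes of each list, the members over cycling cells below the window (left) and above it (right), in WT and KO, with the number of tested genes in brackets. Erythroid and megakaryocyte genes are lowest on the left (-1.08 in WT and -1.18 in KO). On the right that list and the stem, lymphoid and mast cell lists lie between 1.22 and 1.97.

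Counts per cell of lineage genes were read against erythroid-like and megakaryocyte-like cells (medians of 30028.5 UMIs in WT and 19697 in KO for the second), and these backgrounds differed. The erythroid-like cells were no clean background, as the shares with Spi1 above show. After thinning, at least 1 UMI of Flt3 or Dntt was in 53.9% of WT members (50.8 to 57.0) and 49.7% of KO members (45.4 to 54.1). Erythroid-like cells had them in 31.1% (18.2 to 46.6) and 45.9% (37.2 to 54.7), and megakaryocyte-like cells in 6.25% (0.158 to 30.2) and 0% (0 to 11.9). The members thus lay above both backgrounds in WT, and in KO above the megakaryocyte-like cells only. Cebpe or Gfi1 was in 19.8% of WT and 19.0% of KO members (15.8 to 22.7 in KO), in 17.8% and 15.04% of erythroid-like cells and in 0% of both sets of megakaryocyte-like cells, whose interval reached 20.6% in WT and 11.9% in KO. Irf8, Klf4 or Csf1r was in 27.3% and 28.2% of members, in 15.6% and 22.6% of erythroid-like cells and in 6.25% and 10.3% of megakaryocyte-like cells, with overlapping intervals. The stem cell genes Hlf, Mecom or Meis1 were not more frequent in the members beyond counting error, at 73.1% and 66.1%, than in erythroid-like (77.8% and 75.9%) or, with overlapping intervals, megakaryocyte-like cells (75% and 62.1%). Hlf alone was in 42.3% of WT members (39.3 to 45.4) and 25.1% of KO members (21.5 to 29.1), in 51.1% and 27.1% of erythroid-like cells and in 6.25% (0.158 to 30.2) and 10.3% (2.19 to 27.4) of megakaryocyte-like cells. Gata1, Gata2 or Klf1 was in 30.1% of WT members (27.4 to 33.0) and 42.7% of KO members (38.4 to 47.0), against 60% and 48.9% of erythroid-like cells, which use these genes. Without thinning the shares of members were 80.7% and 76.8% for Flt3 or Dntt, 43.5% and 39.6% for Cebpe or Gfi1, 55.2% and 50.5% for Irf8, Klf4 or Csf1r, 95.3% and 88.8% for the stem cell genes, and 55.8% and 72% for Gata1, Gata2 or Klf1.

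Along the granule level, several genes had courses of like direction in the cycling cells of both libraries, at different heights, and others did not. From 10 to 20, 20 to 30 and 30 to 40 per 10,000, Cebpa went from 27.7 to 45.1 and 48.3 CPM in WT and from 21.1 to 35 and 49.7 CPM in KO. Irf8 went from 40.9 to 50.1 and 85.2 CPM in WT and from 17.2 to 33.4 and 38.0 CPM in KO, so that each WT bin of the window lay above the KO bin. Hlf went down from 107 to 65.7 and 38.6 CPM in WT and from 56.0 to 36.6 and 26.5 CPM in KO. Mpo went up from 258 to 518 and 742 CPM in WT and from 86.6 to 140 and 205 CPM in KO. Elane was at 13.1, 18.2 and 33.5 CPM in WT and at 27.9, 39.7 and 49.5 CPM in KO, and reached 150 and 246 CPM at 40 to 80 and 3879 and 5522 CPM above 160. Gfi1 was level through the window, at 24.0, 24.8 and 22.5 CPM in WT and 19.7, 23.8 and 23.9 CPM in KO. Gata2 went down from 63.0 to 54.0 and 47.7 CPM in WT but was at 78.7, 89.6 and 80.4 CPM in KO. Dntt went down from 132.6 to 83.9 and 45.7 CPM in WT and was at 54.6, 56.7 and 43.5 CPM in KO. The bins held 575, 263 and 197 WT cells and 211, 161 and 153 KO cells.

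**Figure D4:**
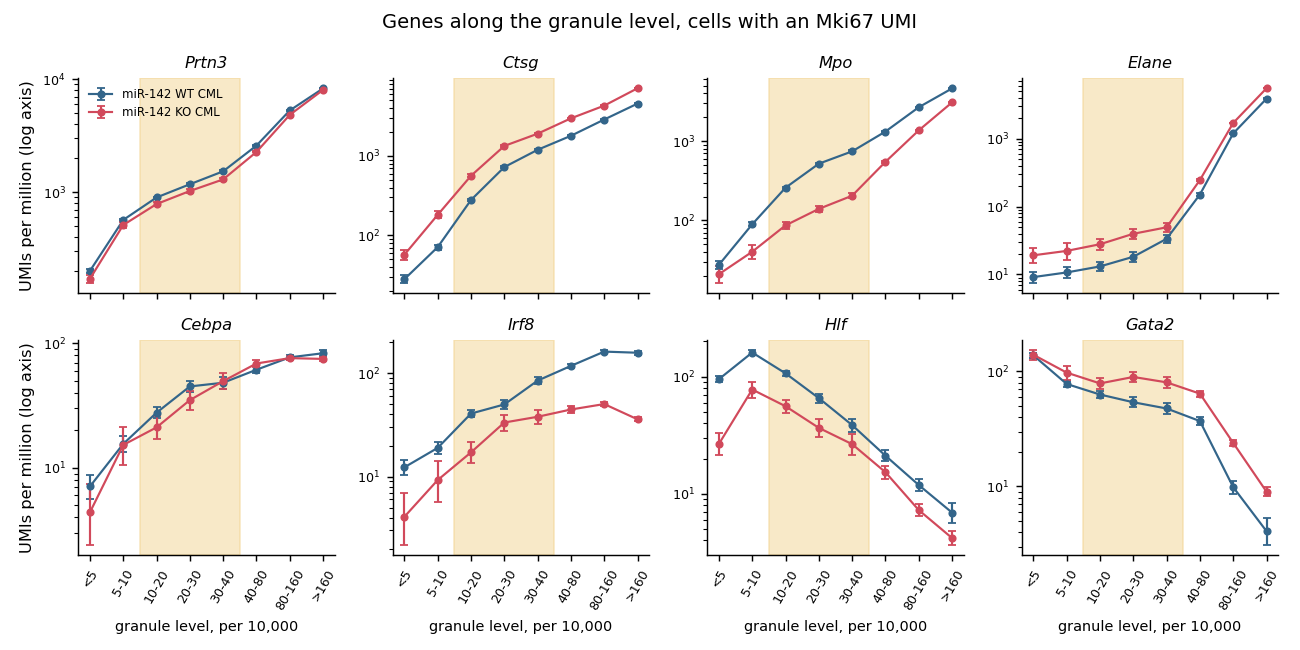
CPM (log axis) of 8 genes in cycling cells grouped by granule level in UMIs per 10,000, WT and KO, with exact 95% counting intervals and the window shaded. Irf8 and Mpo lie lower and Ctsg lies higher in KO in each bin of the window, Cebpa overlaps, and Elane climbs above the window.

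Between WT and KO members few genes differed by 2-fold. At least 2-fold higher in KO were 44 genes (0.764%), at least 2-fold lower 24 genes (0.417%), and 44.7% of the 5757 genes were higher in KO at any size, with a median log2 ratio of -0.02. The highest ratio was that of Tspoap1 (chr11:87760541-87785928), the neighbour of the deleted locus, with 67 UMIs or 2.37 CPM in WT and 3327 UMIs or 278 CPM in KO (6.87, interval 6.53 to 7.24). Gna11, a G protein α subunit gene among the genes followed with miR-142, was at 19.0 CPM in WT against 63.5 CPM in KO (1.74, 1.58 to 1.90), and its ratio was between 1.72 and 1.76 in the 3 neighbouring classes. The RNA splicing endonuclease subunit gene Tsen34 (1.70), the actin regulator gene Cfl2 (1.63) and the metallothionein gene Mt1 (1.56) were also higher. Msi2, an RNA-binding regulator of stem cells, was at 133 CPM in WT against 91.8 CPM in KO (-0.54).

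**Figure D5:**
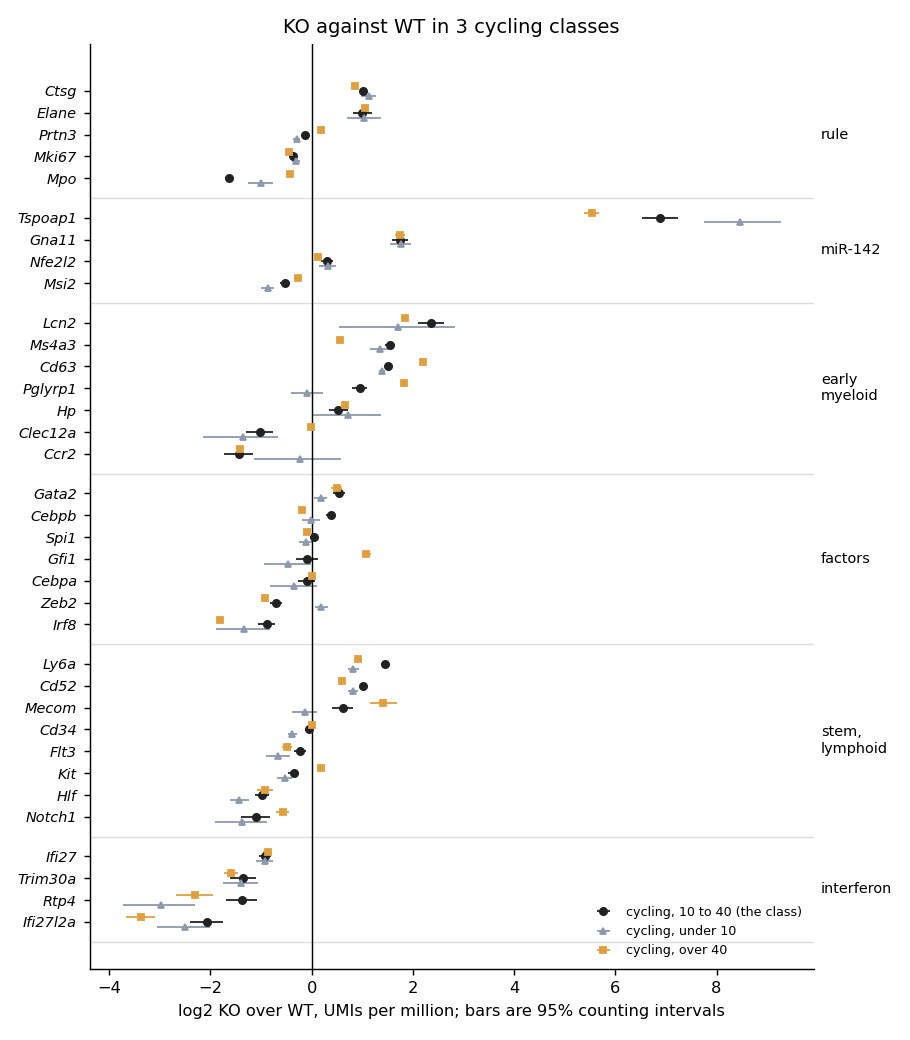
Log2 ratio of KO over WT CPM with exact 95% counting intervals for named genes (y axis, grouped) in the members and in cycling cells below and above the window. Ly6a (1.45) and Mpo (-1.64) lie farther from 0 in the members than in the neighbouring classes, and Gna11 is alike in all 3.

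Among early granulocyte and monocyte genes, 15 of 20 tested were higher in KO, against the 44.7% of all genes, with a median of 0.23. Ms4a3, a cell cycle regulator gene of granulocyte-monocyte progenitors, was at 53.1 CPM in WT against 155 CPM in KO (1.55, 1.45 to 1.65). Cd63, a membrane protein of azurophil granules, was at 172 and 487 CPM (1.499, 1.44 to 1.55). All 4 tested late neutrophil granule genes had ratios above 0, with Lcn2 at 2.36 (2.11 to 2.61, and 2.81 without the cells that carried other markers) and Pglyrp1, a bactericidal peptidoglycan receptor, at 0.95, although Anxa1, the annexin A1 gene, was at 0.0038 (-0.10 to 0.10, and -0.19 without those cells). Free RNA in the KO library was richer in granule transcripts, and in KO erythroid-like cells Ms4a3 was found in 32.3%, against 44.95% of KO members and 24.5% of WT members after thinning, and it was in 62.5% of WT and 48.3% of KO megakaryocyte-like cells. The part of free RNA in these differences was not tested.

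Monocyte and dendritic genes were mostly lower in KO, with 2 of 8 tested higher in KO, against 44.7% of all tested genes, and a median of -0.53. Irf8 was at 53.7 CPM in WT against 29.1 CPM in KO (-0.89, -1.06 to -0.72), and 12.8% of its WT UMIs came from 5 cells. Ccr2, the chemokine receptor of classical monocytes, was at 27.1 and 10.0 CPM (-1.44), and Ctss, a lysosomal protease gene, at 20.7 and 12.5 CPM (-0.72). F13a1 went the other way (0.62). Clec12a, of the early list, was at 24.1 and 11.9 CPM (-1.02). The factor Zeb2 was at 96.0 and 59.0 CPM (-0.70). Cebpa (-0.10, interval -0.27 to 0.07), Gfi1 (-0.09, -0.30 to 0.12) and Spi1 (0.04, -0.03 to 0.11) had counting intervals that included 0, and Cebpb was at 0.38. Klf4 had 157 and 86 UMIs (0.37, -0.03 to 0.76). The share of members with Irf8 was 20.8% in WT and 21.7% in KO after thinning (44.8% and 40.8% without), against 8.89% and 16.5% of erythroid-like cells. The intervals of the members overlapped (18.3 to 23.4 and 18.3 to 25.5), so no order is read from these shares. They did not follow the lower level of Irf8 in KO.

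Sca-1, the surface antigen by which LSK cells are sorted, had a transcript level that differed between the libraries. Its gene Ly6a was at 95.8 CPM in WT against 262 CPM in KO members (1.45, 1.38 to 1.53), with ratios of 0.82 below and 0.92 above the window. Kit was at 97.6 and 76.2 CPM (-0.36) and Cd34 at 353 and 338 CPM (-0.06). Of 10 tested stem cell genes 5 were higher in KO, close to the 44.7% of all tested genes. Hlf was at 79.8 CPM in WT against 40.3 CPM in KO (-0.98, -1.13 to -0.84), and Mecom at 16.7 and 25.6 CPM (0.61). Flt3 was at 77.6 and 66.1 CPM (-0.23), Dntt at 99.1 and 51.7 CPM (-0.94) and Notch1 at 22.5 and 10.4 CPM (-1.11), while Cd52, a small surface glycoprotein of leukocytes, was at 161 and 327 CPM (1.02). Of 11 lymphoid priming genes 3 were higher in KO, against the same 44.7%. Of 17 cytokine receptors and sort antigens 8 were higher, close to that share, with a median of -0.01.

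Genes of the erythroid, megakaryocyte, mast cell and basophil lines were mostly higher in KO members. Erythroid-like cells were 0.483% of WT and 4.57% of KO members. Basophil or mast cell-like cells were 3.09% and 4.0%, and megakaryocyte-like cells 0 in both. Of 12 tested mast cell, basophil and eosinophil genes 10 were higher, with a median of 0.68, against 44.7% of all tested genes. Of 10 erythroid and megakaryocyte genes 7 were higher, with a median of 0.20. The lower ones were Car2, a carbonic anhydrase gene, at 193.9 and 151.6 CPM (-0.35, -0.43 to -0.28), Nfe2 (-0.20) and Tal1 (-0.16, -0.36 to 0.04). Gata2, a factor of stem, megakaryocyte and mast cell progenitors, was at 57.0 and 82.7 CPM (0.54, and 0.59 without the cells that carried other markers). Gata1, the erythroid and megakaryocyte factor, had 77 and 66 UMIs (1.02, 0.52 to 1.51, and 1.53 without those cells). With the erythroid, basophil and mast cell background taken off before the window was applied, Gata1 was at 0.36. Itga2b was at 24.96 and 54.3 CPM (1.12, and 1.06 without those cells). Hbb-bt, an adult β globin gene, was at 76.1 and 362 CPM (2.25, and 2.05 without those cells). The mast cell carboxypeptidase gene Cpa3 was at 256 and 597 CPM (1.23), but 5 cells held 50.5% of its UMIs in WT and 56.8% in KO. Its ratio was 0.61 with the same background taken off and 1.73 with the rule applied after thinning. The proteases Prss34, Mcpt8 and Gzmb rested on 5 cells for 53.9% to 91.6% of their UMIs. Their ratios of -0.10, -0.09 and 0.72 became -0.53, 0.82 and -1.49 without the cells that carried other markers.

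Some of the largest ratios came from a handful of cells. Calca, the calcitonin gene, was at 1.167 CPM in WT against 55.8 CPM in KO (5.58), with 90.9% and 55.7% of its UMIs in 5 cells. Without the cells that carried other markers Calca was at 8.24, Igkc at -4.20 and Ighm at -1.82. Igkc (-5.29) and Ighm (-2.32), which encode antibody chains, had 56.6% and 31.6% of their WT UMIs in 5 cells, Slpi (-2.62), a protease inhibitor gene, 76.0%, and the chemokine gene Ccl6 (-2.89) 53.9%. Other low ratios were spread over the cells, with at most 2.60% of WT UMIs in 5 cells for Gm49980 (-3.46), the histone gene Hist1h2ap (-1.41) and Lst1 (-1.03). Hist1h2ap has near-identical copies among which reads may be split, and its value is uncertain.

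Interferon response genes were mostly lower in KO members. Of 17 tested 2 were higher, against 44.7% of all tested genes, and the median was -0.38. At least 2-fold lower were 3 of the 17, against 0.417% of all tested genes. Ifi27l2a was at 30.2 and 7.18 CPM (-2.07), Rtp4 at 22.7 and 8.77 CPM (-1.37), Trim30a at 33.3 and 13.02 CPM (-1.35) and Ifi27 at 116 and 61.1 CPM (-0.93). The list had medians of -0.46 below and -0.42 above the window, close to that of the members.

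The members were selected as cycling, and most of their proliferation genes were slightly lower in KO. Of 50 tested G2 and M phase genes 5 were higher in KO, with a median of -0.20, against 44.7% of all tested genes. Of 40 S phase genes 4 were higher, with a median of -0.09. Kif23, a motor protein of cell division, was at 79.2 and 49.0 CPM (-0.69), and the kinetochore genes Ndc80 and Nuf2 were at -0.44 and -0.40. Mki67 itself was at 264 and 204 CPM (-0.37). Of 15 genes of G1 cyclins, their kinases and inhibitors 7 were higher, close to the share of all tested genes. In that list Ccnd2, a D-type cyclin, was at 95.8 and 66.6 CPM (-0.52). Cdkn1a, which encodes the inhibitor p21, was at 31.7 and 50.7 CPM (0.67). With at least 2 Mki67 UMIs required, 19.6% of the G2 and M genes and 10.0% of the S phase genes were higher in KO. KO members held fewer UMIs per cell (median 21233) than WT members (25200). Over all cells the order was the reverse, with medians of 24181.5 for KO and 19443 for WT. With the rule, Mki67 threshold included, applied after thinning each cell to 8000 UMIs, the members were 824 in WT and 408 in KO. In that setting Kif23 was at -0.68, Ndc80 at -0.48 and Nuf2 at -0.45. The part of UMIs per cell in these differences was not tested.

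Secretory and metabolic lists differed by small amounts. Over all tested genes 44.7% were higher in KO. Of 25 tested protein folding genes 21 were higher in KO, with a median of 0.14, among them Xbp1 at 50.1 and 81.4 CPM (0.70), Ssr4, a translocon subunit gene, at 513 and 728 CPM (0.51) and Manf at 195 and 254 CPM (0.38). Of 74 nuclear genes of oxidative phosphorylation 51 were higher, with a median of 0.09, whereas 1 of 13 mitochondrially encoded genes was higher, with a median of -0.39. mt-Co3, a cytochrome oxidase subunit gene, was at 4011 and 2442 CPM (-0.72), and the exception was mt-Atp8 (0.24). The median mitochondrial share per member was 2.87% in WT and 2.15% in KO. Of 20 genes of fatty acid oxidation 13 were higher, with a median of 0.10. The acyl-CoA dehydrogenase gene Acadvl and the trifunctional protein gene Hadhb were both at 0.34. Acadvl was at 0.13 with the erythroid, basophil and mast cell background taken off. Hadha, the gene of the other trifunctional protein subunit, was lower in KO (-0.23, -0.36 to -0.11), and so were Acsl5 (-0.20) and Acaa1a (-0.17). Of 15 glycolysis genes 5 were higher, with a median of -0.06.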

How the data were processed

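Per the labels, the file headers and the study's methods, the authors made 1 10x Genomics 3′ library per group, aligned reads to mm10 and counted UMIs with Cell Ranger (6.1.2 in the submitters' processing notes, Cell Ranger 4 in the matrix headers). The deposited values are raw counts of UMIs per gene and barcode, with empty droplets included. They held 170881210 UMIs in WT and 187721815 in KO. Of the barcodes with at least 8000 UMIs, 4 occurred in both libraries and were kept.

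Counts were summed over the members of each library and scaled to UMIs per 1,000,000 (CPM). With 1 library per group no test was run, and a gene is called tested where it had at least 20 CPM in the members of either library and called different at 2-fold. Shares have exact Clopper-Pearson intervals, CPM exact Poisson intervals and log2 ratios exact conditional binomial intervals, all at 95%. For shares of cells with a UMI, each cell was thinned to 8000 UMIs. Doublets were kept, since Scrublet's own threshold (Scanpy 1.11.5) called 0 cells, and an alternative left out the 273 WT and 299 KO barcodes with the highest scores. Cells of other types were taken where their markers summed to at least 20 UMIs per 10,000.

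Named genes were the marker genes, 8 transcription factors and 8 genes fixed by name, the 10 highest and 10 lowest ratios among genes with at least 50 CPM, and from each list up to 4 genes by KO over WT and up to 4 by members over granule-low cells. Dntt was added after its values were seen. Some genes that the rule names are not reported here. The members, lists and rule for naming were chosen with earlier results of these data known, and the motif after the sequences were read. Gene positions came from GENCODE vM21 (GRCm38), in which 32158 of 32285 gene identifiers were found. Scripts were tested on simulated data and run with Python 3.11.15 and SciPy 1.17.1.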

Additional observations from a re-analysis of the deposited data

Results flagged for a closer look

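For Ccnd1 and Slpi the libraries had ratios of opposite sign in the members and in cycling cells above the window. Ccnd1, the cyclin D1 gene, was at 31.5 CPM in WT against 38.1 CPM in KO members (log2 KO over WT 0.28) and at 28.1 and 13.3 CPM above the window (-1.08), a difference of 1.35. Slpi, a protease inhibitor gene, was at 107 and 17.4 CPM in the members (-2.62) and at 85.7 and 127 CPM above the window (0.56), a difference of -3.18, and 76.0% of its UMIs in the WT members came from 5 cells. With 1 library per group neither difference was tested.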

How the results depend on the processing

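With 1 library per group, no replicate could be left out. No paired analysis was possible because each group had 1 library and the groups shared only that replicate number. The alternatives without cells of other types and with a megakaryocyte-like background were chosen after seeing the data. The difference in the share of members, -9.68 points, became -11.91 with at least 12000 UMIs per cell, -4.81 with a window of 15 to 35, -7.89 when the rule was applied after thinning -3.73 with the background taken off and -8.31 with the megakaryocyte-like background taken off. The genes at least 2-fold higher and lower in KO, 44 and 24, became 12 and 6 at 100 CPM and 1626 and 1464 with no filter on low values. The share of list genes higher in KO became 25% for S phase genes (10% in the report) with a window of 15 to 35, and 75% for myeloid transcription factors at 100 CPM, where 4 were tested. It became 100% for the 12 mast cell, basophil and eosinophil genes with the megakaryocyte-like background taken off. At 100 CPM the late neutrophil and the monocyte lists gave no value because under 3 genes were left. A ratio whose counting interval left out 0 changed sign for Prss34 (0.43 after thinning, 0.34 with the background taken off and 0.76 with the megakaryocyte-like background taken off), Gzmb (-1.28 with the background taken off and -1.49 without cells of other types), Mcpt8 (0.82 without cells of other types and 0.18 with the megakaryocyte-like background taken off) and Prtn3 (0.0035 with the background taken off). The cause was not tested. Ratios of 15 other genes also took the other sign, in 40 values of at most 0.19 in size, among them Cebpa (0.09), Gfi1 (0.16) and Klf4 (-0.19) with the background taken off and Anxa1 (-0.19) without cells of other types. Of the results for named genes, 1943 stayed close to the reported value and 179 moved.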
